A study of Homo sapiens with 6 samples.

Results

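The values of 28 developmental transcription factor genes were compared between control cells and cells with a knockdown of STYK1. The cells were PANC-1, an established line from a human carcinoma of the pancreatic duct. These 28 genes are among the 995 of the deposited table, and 923 of those 995 have a symbol. Members were taken by symbol from 31 families whose names begin with letters such as HOX, SOX, FOX, HES, GATA, TBX or DLX, together with LEF1, TCF4, CASZ1 and TLE1. The table holds 24 genes from 14 of these families and the 4 genes listed by symbol. The families and these 4 genes were picked with earlier results of these data known, so the presence of the 4 in the table was fixed by the choice. There were 2 groups of 3 libraries, made from poly(A)-selected RNA of control cells and of cells stably carrying a lentiviral shRNA against STYK1, a kinase gene. The shRNA was delivered in the pLKO.1-puro vector, and resistant clones were selected with puromycin and expanded, so the shSTYK1 cells may stem from few founder cells. The sources used here do not say which of the designed shRNAs the sequenced cells carried, nor what the control cells carried in these libraries. The table has no row for STYK1, so the knockdown was not measured here.

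Transcription factors of these families bind DNA through a shared domain, such as the homeodomain, the forkhead, the T-box or the basic helix-loop-helix (bHLH), and set which genes an embryonic tissue uses. Many are tied to a signalling pathway, some as its targets and others as proteins that act in it. HES and HEY genes are tied to Notch, LEF1 and its co-repressor TLE1 to Wnt, and MSX2 and DLX genes to BMP. ETV5 is tied to FGF and ERK, and TEAD proteins to the Hippo pathway through YAP. In the pancreas, GATA6 and NR5A2 are known for their roles in exocrine and ductal identity, and SNAI1 is known as a repressor of the epithelial cadherin gene.

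The deposited value of each gene is a z-score per library, with a mean of 0 over the 6 libraries. The 2-decimal expression values behind the z-scores were recovered by a numerical search for 994 genes, all 28 members among them, and every value below is such a recovered value. Their unit is not given in the sources used here, so levels were compared between libraries of 1 gene and not between genes. Sequencing depth is unknown. The groups were compared with limma on log2(value + 1), in the 740 genes that reached 1 in 3 or more libraries, and p-values were adjusted over those 740. Fold changes named log2 are on the log2(value + 1) scale, which understates the change of genes with low values, and folds named as ratios are of the group means. The search fixes value + 1 of a gene only up to a whole-number factor, which leaves its log2 fold change as it is. The printed values, zeros, gaps, coefficients of variation and ratios of means rest on the smallest solution. The 995 genes are taken here to be those the authors selected on these same libraries, so a member that passes the test here is a description of its place in a selected list and not independent evidence.

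Of the 28 genes, shSTYK1 cells had less of 25 and more of 3. The 4 genes listed by symbol are all among the lower ones, and of the 24 genes from the families alone 21 were lower. The families were also picked with earlier results known, so this share is not free of that choice either. The lower genes span homeobox, forkhead, T-box, GATA, paired-box and bHLH repressor families. PAX2, TBX18, FOXP1 and LEF1 were at or near 0 in every shSTYK1 library. So were HOXD13 and TCF4, but these were also low in the control libraries, at 0.49 or less, and below the filter on low values. The higher genes were ETV5, MSX2 and DLX3. In all 28 genes the highest library of one group lay below the lowest of the other. Over the whole table, the groups did not overlap with shSTYK1 lower in 48.1% of the 995 genes and with shSTYK1 higher in 45.5%, and 50.2% of the genes were lower by mean z-score. Of the 24 members past the filter on low values, 21 were called lower and 3 higher with an adjusted p under 0.05 in limma, against 44.5% and 51.2% of the 740 genes tested. Over the table, 46.5% of the calls were lower, and 52.3% (334 lower and 305 higher) after rescaling by the median of ratios, under which the members again had 21 lower and 3 higher. The median log2 fold change was -1.0 in the 24 members and 0.55 in the genes tested, and among genes called lower it was -1.03 in the 21 members and -1.17 in all 329. In 10 of the 24 members only control libraries reached the filter value of 1, as in 127 of the 740 genes, so these had to be lower to be tested. In the 13 members with at least 1 in all 6 libraries, 10 were lower, and of the 428 genes of the table that met the same limit 36.9% were lower. In bulk RNA, fewer cells that express a gene and less RNA per cell cannot be told apart.

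**Figure D1:**
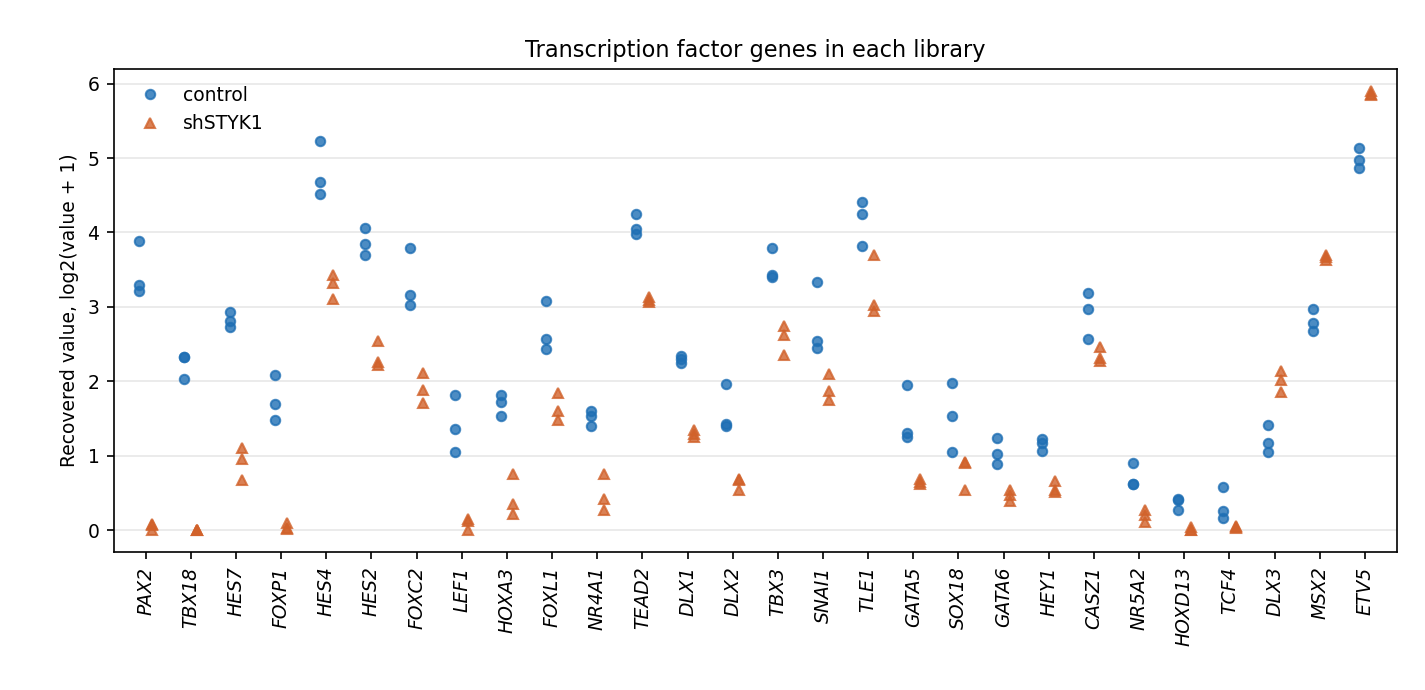
Recovered values of the 28 transcription factor genes on a log2(value + 1) axis, ordered from the largest fall to the largest rise; circles are the 3 control and triangles the 3 shSTYK1 libraries. In 25 genes all circles lie above all triangles, and in DLX3, MSX2 and ETV5 all lie below.

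**Figure D2:**
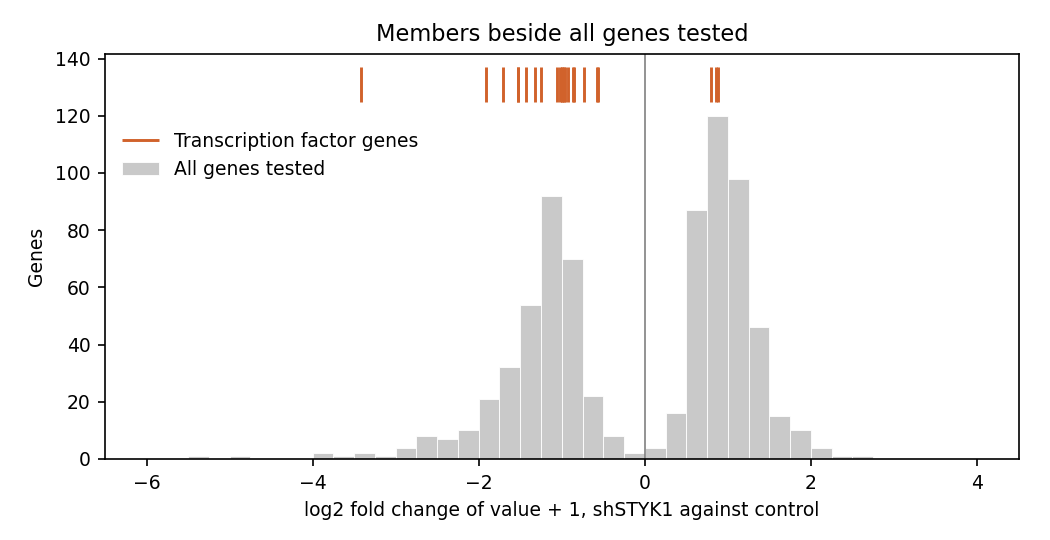
Number of genes per bin of log2 fold change of value + 1 for the 740 genes tested (grey bars), with a mark for each member tested except TBX18, whose shSTYK1 libraries are all listed at 0. Of the marks, 20 lie left of 0 and 3 lie right of it, and few of the genes of this selected table lie around 0.

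HES genes encode bHLH-Orange repressors, of which several are switched on by Notch. The table holds HES2, HES4 and HES7 and, of the related HEY genes, HEY1, and these were lower in shSTYK1 cells. No other HES or HEY gene is in the table, so they do not stand for the whole family or for Notch targets. HES4 (ENSG00000188290, chromosome 1 from 998962 to 1000172 on the minus strand) had recovered values of 24.51, 36.52 and 21.96 in the control and 7.63, 9.72 and 9.03 in the shSTYK1 libraries. That is a 3.15-fold lower mean, with a log2 fold change of -1.52 ± 0.20 (SE, adjusted p = 0.000209 in limma). The second control library was highest, and the lowest control library still lay 12.24 above the highest shSTYK1 library. HES2 (ENSG00000069812) was at 13.37, 15.64 and 11.99 in the control libraries, against 4.82, 3.79 and 3.66 in those with shSTYK1 (log2 fold change -1.53, adjusted p = 6.56e-05 in limma). HES7 (ENSG00000179111), the repressor of the segmentation clock in the embryo, was at 5.62, 6.63 and 6.01 and then at 0.93, 0.60 and 1.15. Its mean was 6.81-fold lower, the largest ratio of the family, with a log2 fold change of -1.91 ± 0.15 (SE, adjusted p = 2.21e-05 in limma). HEY1 (ENSG00000164683), a related repressor, was at 1.33, 1.25 and 1.09 in the control libraries, against 0.45, 0.43 and 0.58 in those with shSTYK1. Its log2 fold change of -0.58 (adjusted p = 0.00179 in limma) fell to -0.25 with quantile normalization (adjusted p = 0.0731 in limma).

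The promoters of HES2, HES4 and HES7 are shown because these HES genes of the table all fell. HES promoters are also textbook sites of the Notch effector RBPJ, whose core letters are TGGGAA. The 100 bases before the RefSeq transcript start are given 5′ to 3′ on the gene's strand (GRCh38.p14), for HES2 at chr1:6419920-6420019, HES4 at chr1:1000098-1000197 and HES7 at chr17:8124107-8124206. The RefSeq start lies 4751 bases inside the GENCODE 29 span of HES2 and 75 bases inside that of HES4, and outside that of HES7 by a few bases. Capitals mark TGGGAA.
HES2: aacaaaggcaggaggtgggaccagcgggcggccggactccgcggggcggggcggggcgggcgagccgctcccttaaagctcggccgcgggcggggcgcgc
HES4: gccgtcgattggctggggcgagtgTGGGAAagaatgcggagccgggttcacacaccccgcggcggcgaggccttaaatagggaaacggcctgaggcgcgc
HES7: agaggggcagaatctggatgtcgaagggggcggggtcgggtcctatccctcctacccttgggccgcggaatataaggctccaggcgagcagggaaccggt
The HES4 promoter held 1 match, whose first base lies 76 bases before the start, and HES2 and HES7 held none in their windows. In windows from 250 bases before to 50 after each start, searched on both strands, TGGGAA or its complement TTCCCA stood in 24.0% of 35116 RefSeq windows. Among the members, 18 had a window, and 8 of these had the letters in at least 1 of their windows (FOXP1, HES4, LEF1, NR4A1, PAX2, TBX18, TCF4 and TEAD2), in 12 of 42 windows together. In the bases before the start alone, 10 windows of 7 members held them, since the matches of TBX18 and of 1 TCF4 window lie after the start. Such a match is a string of letters and not a measured binding site.

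TLE1 encodes a Groucho-type co-repressor that both HES proteins and LEF/TCF proteins recruit. TLE1 (ENSG00000196781) was at 17.92, 20.17 and 13.05 in the control libraries, against 11.92, 6.70 and 7.17 in those with shSTYK1, with a log2 fold change of -0.93 ± 0.24 (SE, adjusted p = 0.00547 in limma). The first shSTYK1 library and the third control library were only 1.13 apart, so its groups were separate by little. LEF1 (ENSG00000138795), the HMG-box partner of β-catenin, was at 1.07, 2.53 and 1.56 in the control libraries, and the shSTYK1 libraries are listed at 0.09, 0 and 0.11. Its log2 fold change was -1.32 (adjusted p = 0.000384 in limma), and LEF1-AS1 overlaps it on the other strand. TCF4 (ENSG00000196628), which encodes a bHLH E protein and is not the β-catenin partner TCF7L2, was below the filter. Its control libraries at 0.49, 0.19 and 0.12 had a coefficient of variation of 73.7%, and the shSTYK1 libraries were at 0.03, 0.04 and 0.02, so that only 0.08 separated the groups.

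DLX1 and DLX2, neighbouring distal-less homeobox genes that are transcribed towards each other on chromosome 2, were both lower, and their relative DLX3 on chromosome 17 was higher. DLX1 (ENSG00000144355, chromosome 2 from 172084740 to 172089677 on the plus strand) was at 4.04, 3.94 and 3.75 in the control libraries, against 1.45, 1.38 and 1.54 in those with shSTYK1, with a coefficient of variation of 3.77% and 5.51% within the groups. Its mean was 2.68-fold lower (log2 fold change -1.0 ± 0.11 SE, adjusted p = 0.000109 in limma). DLX2 (ENSG00000115844, chromosome 2 from 172099439 to 172102900 on the minus strand) was at 1.63, 2.90 and 1.68 and at 0.60, 0.61 and 0.45, a 3.74-fold lower mean, or 2.44-fold with value + 1 doubled (log2 fold change -0.96, adjusted p = 0.00102 in limma). The second control library stood above the other two in DLX2 but not in DLX1. DLX3 (ENSG00000064195), known for epidermal and placental development, was at 1.67, 1.24 and 1.07 in control and rose to 3.40, 3.03 and 2.63 in shSTYK1 libraries. This 2.28-fold rise had a log2 fold change of 0.79 ± 0.15 (SE, adjusted p = 0.00106 in limma).

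The 100 bases before the RefSeq starts of DLX1 (chr2:172085407-172085506) and DLX2 (chr2:172102901-172103000) are printed as a neighbouring pair that fell together. The RefSeq start of DLX1 lies 767 bases inside the span that GENCODE 29 gives the gene, and that of DLX2 lies at the edge of its span. They read 5′ to 3′ on each gene's strand (GRCh38.p14, RefSeq), with capitals for the TCF/LEF core CTTTGA and its complement TCAAAG in DLX1, and for the bHLH E-box CACGTG in DLX2.
DLX1: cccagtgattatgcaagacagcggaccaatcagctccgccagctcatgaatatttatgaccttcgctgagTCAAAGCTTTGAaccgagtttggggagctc
DLX2: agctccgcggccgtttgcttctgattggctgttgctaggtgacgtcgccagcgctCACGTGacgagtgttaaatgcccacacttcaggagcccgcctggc
In the printed bases of DLX1 the 2 TCF/LEF strings adjoin each other as a palindrome that starts 30 bases before the transcript start. In DLX2 the E-box starts 45 bases before it. CTTTGA or TCAAAG stood in 12.9% of the 35116 windows and in 2 of the 42 windows of members, those of DLX1 and NR5A2. CACGTG stood in 7.26% of all windows and in 4 of the 42 windows of members, 1 each of DLX2, HOXA3, HOXD13 and TCF4. The single LEF1 window held neither string, which says only that these letters are not there.

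Of the other homeobox genes, MSX2 was higher and both HOX genes were lower. MSX2 (ENSG00000120149, chromosome 5 from 174724533 to 174730893 on the plus strand), a BMP-responsive repressor of craniofacial and limb development, was at 5.87, 6.87 and 5.36 in the control libraries, against 11.71, 11.40 and 11.93 in those with shSTYK1. The mean rose 1.94-fold (log2 fold change 0.86 ± 0.13 SE, adjusted p = 0.000377 in limma). HOXA3 (ENSG00000105997), a gene of pharyngeal patterning, was at 2.53, 2.30 and 1.89 and at 0.16, 0.68 and 0.28, a mean 6.0-fold lower, or 3.14-fold with value + 1 doubled (log2 fold change -1.25, adjusted p = 0.000242 in limma). In GENCODE 29 the HOXA3 gene spans HOXA4, HOXA5 and HOXA6 on the same strand, so its reads may be shared with theirs. HOXD13 (ENSG00000128714), the most distal HOXD gene, was below the filter, at 0.32, 0.21 and 0.34 in control libraries, and in shSTYK1 libraries it was listed at 0.03, 0 and 0.

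PAX2 had the largest fall on the log2(value + 1) scale, and TBX18 was the only member listed at 0 in every shSTYK1 library. PAX2 (ENSG00000075891, chromosome 10 from 100735603 to 100829941 on the plus strand), a paired-box gene of kidney and eye development, was at 8.82, 13.83 and 8.31 in control libraries and listed at 0.05, 0.06 and 0 in shSTYK1 libraries. The log2 fold change was -3.42 ± 0.19 (SE, adjusted p = 5.86e-06 in limma), and -6.24 with a pseudocount of 0.1 in place of 1, a value that also rests on the smallest solution. TBX18 (ENSG00000112837, chromosome 6 from 84687351 to 84764519 on the minus strand), a T-box repressor of epicardial and ureteric mesenchyme, was at 4.01, 3.07 and 4.0 in control libraries and is listed at 0 in all 3 shSTYK1 libraries. No fold is given for it, and its adjusted p was 7.41e-06 in limma. TBX18-AS1 overlaps it on the opposite strand, and how the authors treated strand is not given in the sources used here. TBX3 (ENSG00000135111), a T-box repressor known in limb and mammary development, stayed well above 0. It was at 9.57, 12.85 and 9.79 in the control libraries, against 5.71, 5.14 and 4.10 in those with shSTYK1, 2.15-fold lower by the means (log2 fold change -0.97, adjusted p = 0.000712 in limma).

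The forkhead genes FOXC2, FOXL1 and FOXP1 were each lower. FOXC2 (ENSG00000176692, chromosome 16 from 86566829 to 86569728 on the plus strand), known in mesenchyme and lymphatic vessels, was at 7.96, 12.81 and 7.13 in the control libraries, against 2.69, 3.32 and 2.26 in those with shSTYK1. Its mean was 3.37-fold lower (log2 fold change -1.42 ± 0.22 SE, adjusted p = 0.000431 in limma). FOXL1 (ENSG00000176678, chromosome 16 from 86576368 to 86582160 on the plus strand), a gene of the gut mesenchyme, begins less than 10 kb from FOXC2 and fell from 4.95, 7.48 and 4.39 to 2.58, 1.80 and 2.03 (log2 fold change -1.05, adjusted p = 0.00107 in limma). In both genes the second control library was the highest. FOXP1 (ENSG00000114861), a widely used repressor, was at 2.25, 1.80 and 3.22 in control libraries and at 0.02, 0.07 and 0.01 in shSTYK1 libraries. Its means differed 72.7-fold, a ratio that rests on shSTYK1 values near the smallest step of 0.01 and would be 5.48 with value + 1 doubled (log2 fold change -1.71, adjusted p = 6.27e-05 in limma). FOXC2-AS1 and FOXP1-AS1 overlap their genes on the other strand.

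GATA5 and GATA6, zinc finger factors of the endoderm, had low values and were lower in shSTYK1 cells. GATA5 (ENSG00000130700) was at 1.39, 2.85 and 1.48 in the control libraries, against 0.61, 0.54 and 0.56 in those with shSTYK1 (log2 fold change -0.85 ± 0.19 SE, adjusted p = 0.00298 in limma). GATA6 (ENSG00000141448) was at 1.03, 1.35 and 0.85 and at 0.39, 0.31 and 0.45, and narrowly missed the filter because 2 and not 3 libraries reached 1. NR5A2 (ENSG00000116833), the nuclear receptor LRH-1 of exocrine pancreas and liver, was also below the filter, at 0.53, 0.54 and 0.87 in the control libraries, against 0.15, 0.08 and 0.21 in those with shSTYK1. For GATA6, NR5A2, HOXD13 and TCF4, the 4 members below the filter, the exact permutation test of the difference in means gave p = 0.1 (two-sided), the smallest it can give with 3 against 3. Without the filter, limma called GATA6 (adjusted p = 0.00307), NR5A2 (0.00475) and HOXD13 (0.00973) lower and did not call TCF4 (0.0657). On the deposited scores of all genes it called all 4 lower, TCF4 with an adjusted p of 0.0258 in limma. NR4A1 (ENSG00000123358), an orphan receptor of the immediate early response, was at 1.64, 1.89 and 2.02 in control libraries and at 0.34, 0.68 and 0.21 in shSTYK1 libraries. Its mean was 4.51-fold lower, or 2.58-fold with value + 1 doubled (log2 fold change -1.03, adjusted p = 0.000385 in limma).

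The 3 genes that rose had log2 fold changes of 0.88 (ETV5), 0.86 (MSX2) and 0.79 (DLX3), closer to each other than their standard errors. With quantile normalization their order turned, to 0.96 for DLX3, 0.86 for MSX2 and 0.58 for ETV5. ETV5 (ENSG00000244405, chromosome 3 from 186046308 to 186110318 on the minus strand), an ETS factor that FGF and ERK signals switch on, was at 28.09, 34.10 and 30.32 in the control libraries, against 56.46, 56.86 and 58.76 in those with shSTYK1. The mean rose 1.86-fold (log2 fold change 0.88 ± 0.12 SE, adjusted p = 0.000288 in limma), and 22.36 separated the highest control library from the lowest shSTYK1 library. TEAD2 (ENSG00000074219), a DNA-binding partner of YAP, was lower, at 14.80, 18.00 and 15.53 and then 7.35, 7.74 and 7.54 (log2 fold change -1.0 ± 0.12 SE, adjusted p = 0.000175 in limma). SNAI1 (ENSG00000124216) was at 4.84, 9.05 and 4.44 in the control libraries, against 2.36, 3.29 and 2.66 in those with shSTYK1 (log2 fold change -0.87, adjusted p = 0.00817 in limma). Its control libraries had a coefficient of variation of 41.8%, with the second one further above the other two than these were above any shSTYK1 library. CASZ1 (ENSG00000130940), a zinc finger factor of heart and nerve cell development, had the smallest fall of the members tested by the ratio of means, 1.61-fold, from 4.91, 8.07 and 6.81 to 4.48, 3.96 and 3.82 (log2 fold change -0.56, adjusted p = 0.0142 in limma). SOX18 (ENSG00000203883), an HMG-box factor of blood and lymph vessels, had the largest adjusted p of the members tested. It was at 1.90, 2.94 and 1.07 in the control libraries, against 0.87, 0.88 and 0.45 in those with shSTYK1 (log2 fold change -0.74, adjusted p = 0.0165 in limma), and the groups were only 0.19 apart. Without the third shSTYK1 library the log2 fold change of SOX18 was -0.61 (adjusted p = 0.0598 in limma). With quantile normalization it was -0.47 (adjusted p = 0.0986 in limma).

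The direction of each of the 24 members tested was the same when the libraries were rescaled by the median of ratios or quantile normalized. Median-of-ratios rescaling shifted every log2 fold change by -0.32, so members that fell moved further down and members that rose moved towards 0. Such a shift could turn a rise but not a fall, so it was no check on the members that fell. Under it, ETV5 was at 0.56, MSX2 at 0.53 and DLX3 at 0.47, all still called higher in limma. Both scalings presume that most genes keep their level. They were computed on the genes tested alone, of which 44.5% were called lower and 51.2% higher.

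**Figure D3:**
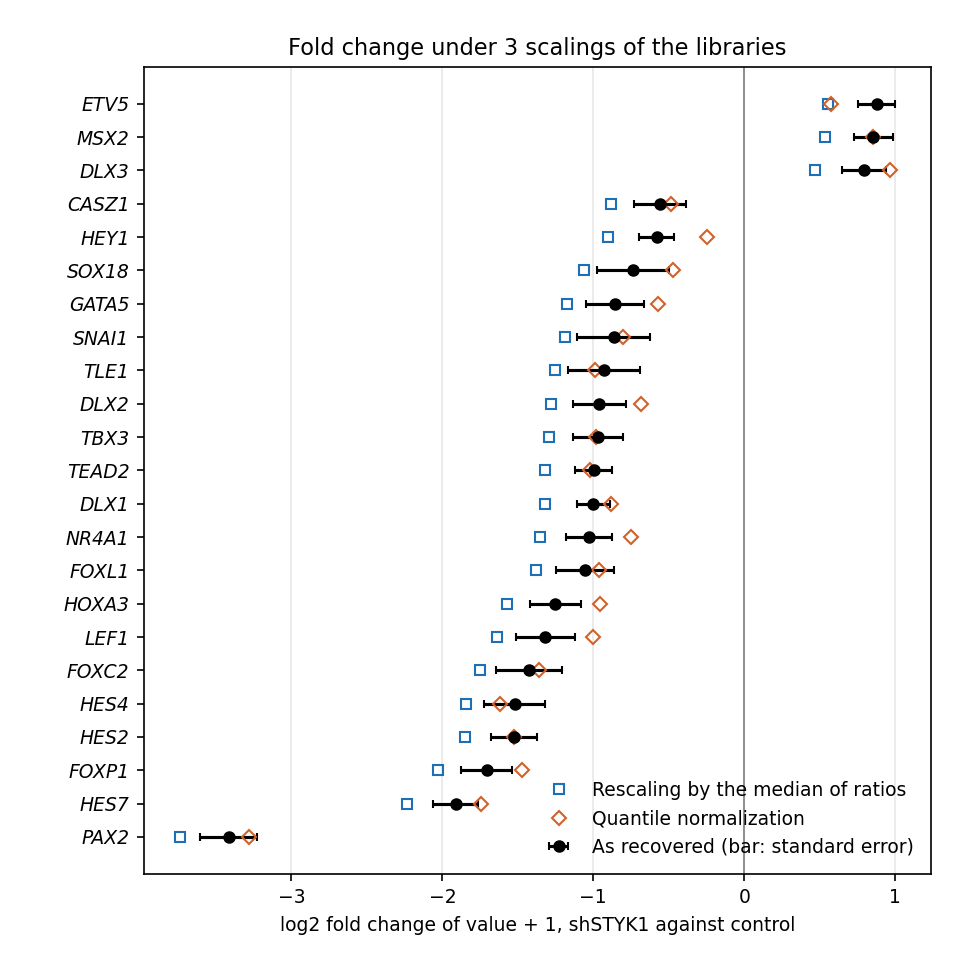
log2 fold change of value + 1 for the 23 members tested other than TBX18, with its standard error (black points and bars), and the same under 2 other scalings (open squares and diamonds). ETV5, MSX2 and DLX3 lie right of 0 under each scaling, the other members lie left of 0, and HEY1 comes nearest to 0, at -0.25 with quantile normalization.

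The other table genes within 5 Mb of a member moved the same way as the member in 76 of 115 pairs (66.1%), and over all 965 located genes of the table in 68.0% of pairs. Most neighbours went with the member in 16 of the 26 members that had any, against it in 8, and were split evenly in 2. Over all located genes of the table, this was 552 of the 897 that had any, with 245 against and 100 split evenly. On the short arm of chromosome 1, 5 of 5 other table genes within 5 Mb of HES4, 8 of 9 around HES2 and 6 of 7 around CASZ1 were lower in shSTYK1 cells. Around DLX1 and around DLX2, 6 of 6 were lower, and around HOXD13 on the same chromosome 4 of 4 were lower. These windows are not separate: DLX1, DLX2 and HOXD13 count for each other, as do HES2 and CASZ1, FOXC2 and FOXL1, and GATA5 and SOX18. Near ETV5, on the long arm of chromosome 3, 6 of 6 were higher. By contrast, the 2 table genes near PAX2, the 3 near TBX18, the 2 near NR5A2 and the 1 near LEF1 were all higher, while these members were lower, and 2 of 3 near MSX2 were lower, while MSX2 was higher. Around TEAD2, 3 of 10 were lower and 7 were higher. GATA6 and TCF4 had no other table gene within 5 Mb. The part of the surrounding region in the change of any member was not tested.

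**Figure D4:**
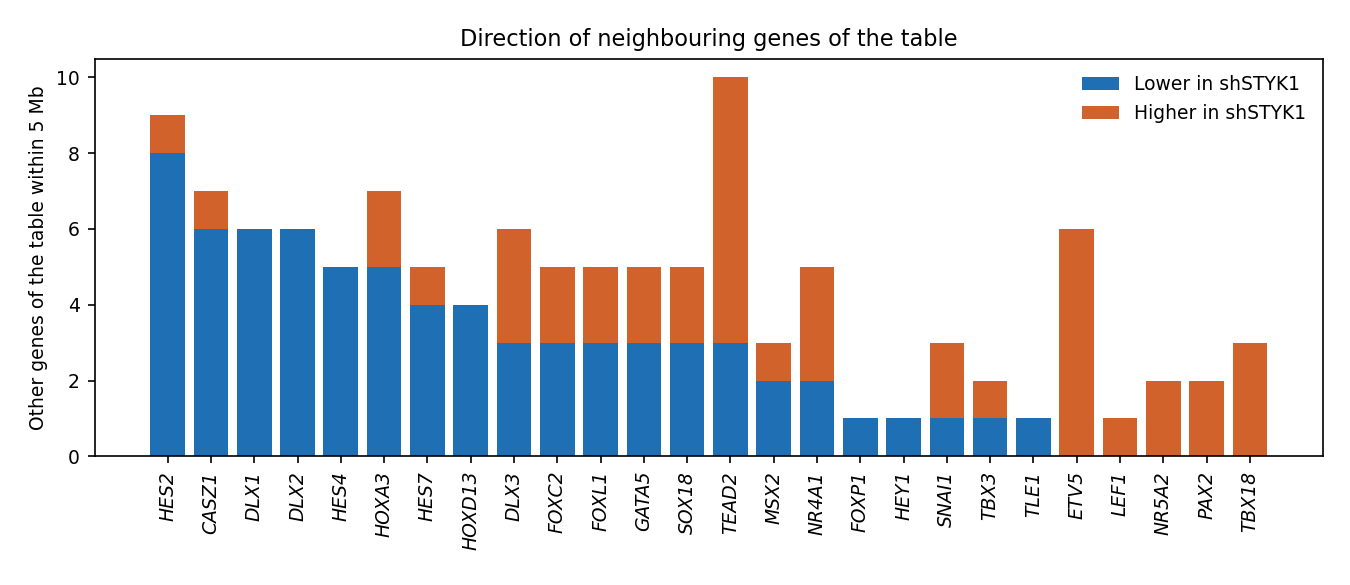
Number of other genes of the table within 5 Mb of each member (bars), split into genes lower and higher in shSTYK1 cells by mean z-score; GATA6 and TCF4, with none, are left out. The bars of HES4, DLX1, DLX2, HOXD13, FOXP1, HEY1 and TLE1 hold lower genes only. Those of ETV5, PAX2, TBX18, NR5A2 and LEF1 hold higher genes only, although PAX2, TBX18, NR5A2 and LEF1 themselves fell. The bars of FOXP1, HEY1, TLE1 and LEF1 hold 1 gene each.

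Lists of genes from the pathways that these factors act with were read from the same fit, in which 44.5% of the genes tested were called lower and 51.2% higher, so calls in a list are the rule in this table. Of 32 Notch pathway genes, 2 are in the table. NRARP, a Notch target and feedback inhibitor, was at 12.86, 16.84 and 13.30 in the control libraries, against 6.06, 4.96 and 5.65 in those with shSTYK1 (log2 fold change -1.22, adjusted p = 0.000148 in limma). DTX3L, a ubiquitin ligase of the Deltex family that is also induced by interferon, rose from 5.46, 5.42 and 6.15 to 17.01, 13.16 and 16.75 (log2 fold change 1.31, adjusted p = 9.21e-05 in limma). None of the Notch receptor and ligand genes of that list is in the table. All 3 YAP and TEAD targets of 24 that the table holds were called lower. CCN2, the matrix-associated factor also named CTGF, was at 81.42, 96.72 and 84.31 and then at 37.20, 36.69 and 34.99 (log2 fold change -1.24), ANKRD1 was at -2.06 and AMOTL1 at -1.91 on the same scale.

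Of 49 genes of the BMP and TGF-β pathway, 8 are in the table and 5 were tested, of which 3 were called lower and 2 higher. By mean z-score 4 of the 8 were lower and 4 higher, with SMAD9, a signal transducer of BMP receptors, and INHBE, an activin subunit gene, higher and the receptor gene BMPR1B lower among those below the filter. INHBB, which encodes an activin subunit, fell from 19.77, 21.92 and 18.12 to 3.41, 3.06 and 3.64 (log2 fold change -2.26, adjusted p = 6.17e-06 in limma). BMP4, a ligand upstream of MSX and DLX genes in the embryo, had a log2 fold change of -1.39, and LTBP2, a matrix protein of the latent TGF-β binding family, one of -1.41. GDF15, a stress-induced ligand, rose from 102.58, 122.68 and 82.83 to 251.92, 330.71 and 251.19 (log2 fold change 1.43), and the co-receptor gene TGFBR3 rose with a log2 fold change of 0.64. Of 33 Hedgehog and retinoic acid genes, 9 are in the table, and of the 7 tested 3 were called lower, 3 higher and 1 was not called. By mean z-score 5 of the 9 were lower and 4 higher, and of those below the filter SMO was higher and GLI3 lower. The ligand gene SHH was at 5.57, 6.31 and 6.0 in the control libraries, against 1.30, 1.16 and 1.14 in those with shSTYK1 (log2 fold change -1.66, adjusted p = 1.51e-05 in limma). DHRS9, a retinol dehydrogenase gene, and STRA6, the retinol transporter gene, also fell, with log2 fold changes of -1.68 and -1.15. ALDH1A3, which makes retinoic acid, rose from 115.64, 137.90 and 122.04 to 300.62, 276.34 and 294.05 (log2 fold change 1.21), CRABP2, which carries it, had a log2 fold change of 0.99, and the Hedgehog co-receptor gene CDON one of 0.78. GLI1, the Hedgehog readout gene, was not called, with shSTYK1 libraries at 0.39, 1.05 and 6.77 that spanned those of control.

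Of 32 genes of FGF signalling and ERK feedback, 3 are in the table and all were lower by mean z-score, while ETV5 was higher. The receptor gene FGFR2 was the only one past the filter, and fell from 6.79, 6.90 and 7.42 to 0.44, 0.41 and 0.21 (log2 fold change -2.57, adjusted p = 3.39e-06 in limma). FGF5 and DUSP4 were below the filter. Of 44 genes of epithelial and mesenchymal state, 10 are in the table, and of the 7 tested 6 were called lower and 1 higher. The desmosome gene DSP, the collagen gene COL1A1 and the neural cadherin gene CDH2 had the largest falls, with log2 fold changes of -3.64, -2.83 and -2.67. These 6 hold both epithelial genes (DSP and PKP2) and mesenchymal genes (COL1A1, CDH2, COL5A1 and SPARC). CLDN1, a tight junction gene, rose with a log2 fold change of 1.90. By mean z-score 6 of the 10 genes were lower and 4 higher, and the 4 higher ones, CLDN1, CDH1, TJP3 and ESRP1, are all epithelial genes. CDH1, the gene that SNAI1 is known to repress, was below the filter, at 0.10, 0.27 and 0.28 in the control libraries, against 0.94, 0.85 and 0.90 in those with shSTYK1, with no overlap. TJP3, another tight junction gene below the filter, was at 0.21, 0.68 and 0.26 and at 1.32, 0.73 and 1.16, also with no overlap, while the libraries of the splicing factor gene ESRP1 overlapped. No circadian clock gene of 19 is in the table. Over all genes tested the median log2 fold change was 0.55, and it was -2.29 in the epithelial and mesenchymal list and -1.91 in the YAP and TEAD list. The Notch median of 0.05 lies midway between 2 genes that went opposite ways, and the Hedgehog and retinoic acid median of -0.24 is the value of GLI1, which was not called, so neither describes its list. The BMP and TGF-β median of -1.39 is likewise the value of BMP4 in a list with calls in both directions. In the same way, the epithelial and mesenchymal median of -2.29 is the value of COL5A1, in a list where CLDN1 was called higher.

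**Figure D5:**
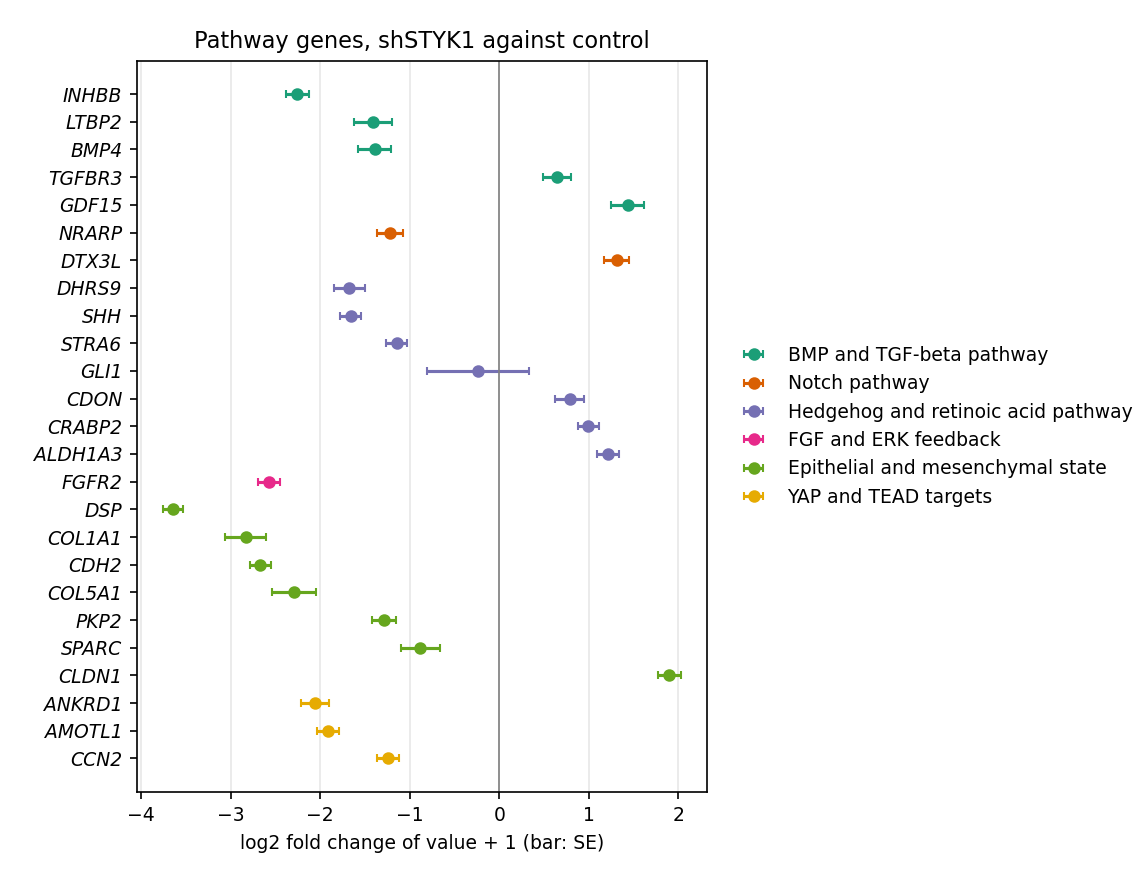
log2 fold change of value + 1 with its standard error for the 25 pathway genes tested, coloured by list. All genes of the YAP and TEAD list lie left of 0, and the BMP and TGF-β, Notch, Hedgehog and retinoic acid, and epithelial and mesenchymal lists hold genes on both sides of 0.

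The label of PANC-1 as a ductal line could not be checked in this table, since none of 10 ductal epithelial markers is in it. None of 6 acinar, 6 islet endocrine and 6 leukocyte markers is in it either. Of 7 fibroblast markers the table holds COL1A1 alone, at 26.73, 42.24 and 22.24 in the control libraries, against 3.12, 3.73 and 2.94 in those with shSTYK1, and of 6 endothelial markers it holds KDR alone, at 0.26, 0.54 and 0.44 in control libraries and listed at 0 in all shSTYK1 libraries. Both were lower in the same direction as the mesenchymal and vascular members FOXC2, FOXL1, TBX18 and SOX18, and their part in those results was not tested.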

How the data were processed

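The authors deposited a z-score, here called a score, for 995 genes in 6 libraries (mean 0, SD 1 with divisor 6). The submitters' processing notes name RSEM, DESeq2 and GRCh38 without a role; aligner, annotation, unit and depth are not given in the sources used here. Symbols came from a table of gene IDs. Values were recovered in Python 3.11.15 (numpy 2.4.6, numba 0.67.0, pandas 2.3.3) as sets of 6 numbers with 2 decimals whose log(value + 1) gives the scores within 5e-12, with value + 1 up to 2000; 1 gene was not solved. The smallest solution was used, so value + 1 of a gene is known up to a whole-number factor. Of 200 simulated sets, 198 were recovered exactly, and none of 30 unrounded sets was solved.

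Groups came from the sample titles. limma 3.58.1 (R 4.3.3, lmFit and eBayes) compared them, with Benjamini-Hochberg adjustment over 740 genes; 254 genes were below the filter. Tested on simulated data for this comparison, with 200 of 740 genes changed by 1 on the log2 scale, it called 179 correctly and 5 of 540 unchanged genes. Positions and overlaps come from GENCODE 29 (965 genes located), promoters from RefSeq (GRCh38.p14), which had windows for 18 of 28 members. The design foresaw recovered values, and no count test was run. Alternatives were pseudocount, rescaling, quantile normalization, filters, deposited scores, eBayes with trend, each library left out, and a replicate block.

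Members and lists were chosen with earlier results of these data known. By a rule written with the design, every member was named, and up to 3 called genes per pathway list and direction; list genes below the filter, PKP2, COL5A1, SPARC and GLI1 were named after their values were seen. The study's methods speak of independent biological replicates for its cell experiments, with 3 per group here, but not of separate clones or transductions, so p-values measure the spread between these libraries. Plots were drawn with matplotlib 3.10.9.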

Additional observations from a re-analysis of the deposited data

How the results depend on the processing

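Every member tested kept its direction under each alternative in which it was tested. The calls changed for HEY1 and SOX18 with quantile normalization and for SOX18 without the third shSTYK1 library. A filter of at least 5 in at least 3 libraries left 8 members called lower and 2 higher, with 130 lower and 194 higher genes over the table, because fewer genes were tested. For the 7 pathway lists together, 7 genes were called higher, and 4 with quantile normalization; the cause was not tested. Without a filter it was 11, since more genes were tested, and with the deposited scores, which change the measure as well, 12, where the cause was not tested. Members called lower rose from 21 to 24 without a filter and to 25 with the deposited scores. Leaving out 1 library at a time gave 20 or 21 members called lower and 3 higher.

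Same-numbered libraries had correlations of their deviations across genes of -0.22, 0.19 and 0.05, within the -0.25 to 0.23 of unlike-numbered ones. Whether same-numbered libraries were handled together is not given in the sources used here, and these correlations cannot decide it. With the replicate block, 21 members were called lower and 3 higher, and 329 and 385 genes over the table. Depth is unknown, so no detection limit could be set for values listed at 0, which 120 of 994 genes have in at least 1 library. Filters, quantile normalization, the pseudocount of 0.1 and ratios of means rest on the smallest solution of each gene.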

Other observations

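Of the genes of the table, 5 share their first letters with a family without being counted as members: FOXL2NB, NRARP and NRROS encode no factor of the family, and GATA2-AS1 and NRP2 were left out by the rule. GATA2-AS1, a noncoding transcript that overlaps GATA2 on the opposite strand, was at 10.71, 18.24 and 11.12 in the control libraries, against 28.12, 33.67 and 28.38 in those with shSTYK1 (log2 fold change 1.15, adjusted p = 0.000956 in limma), and GATA2 itself is not in the table. NRP2, a co-receptor gene for semaphorins and VEGF, had the largest change of the 5 and fell from 8.28, 8.31 and 7.44 to 0.82, 0.74 and 0.56 (log2 fold change -2.40, adjusted p = 4.32e-06 in limma). FOXL2NB, a neighbour of the forkhead gene FOXL2, rose from 3.28, 4.61 and 3.74 to 8.0, 8.32 and 8.15 (log2 fold change 0.92). NRROS, a regulator of TGF-β activation, rose from 3.41, 3.77 and 1.99 to 8.75, 9.35 and 8.01 (log2 fold change 1.28). GATA2-AS1, FOXL2NB and NRROS lie on the long arm of chromosome 3, where 13 of 13, 5 of 5 and 6 of 6 other table genes within 5 Mb of them were higher.

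Among the control libraries, the second was the highest in 18 of the 28 members, the first in 6 and the third in 4. Over the 994 genes with recovered values it was the highest in 47.5%, the first in 22.7% and the third in 29.8%, and its share was 47.3% in genes that fell and 47.7% in genes that rose. Without that library 21 members were called lower and 3 higher in limma, as with all libraries.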
